A study of Mus musculus with 7 samples.

Results

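The epidermal growth factor (EGF) receptor ligands other than EGF itself, their ErbB receptors and the protease that releases the ligands were examined in kidneys of cisplatin-treated mice. The 10 genes were taken by name from the deposited table of 54532 genes: the ligands Hbegf, Areg, Ereg, Tgfa, Btc and Nrg1, the receptors Egfr, Erbb2 and Erbb3, and the protease gene Adam17. Bulk RNA-seq was carried out on 7 kidney libraries of C57BL/6J mice aged 6 to 8 weeks, which the series describes as male. The DXZ group (n = 3) received DXZ at 40 mg/kg through the tail vein, with a first dose 30 min ahead of cisplatin and repeat doses at intervals of 24 h over 3 days. The saline group (n = 4) is labelled saline. Both groups had cisplatin through the tail vein at 20 mg/kg. Cisplatin is a platinum chemotherapy agent that damages tubule cells. DXZ is written as in the labels, which do not spell it out. No kidney without cisplatin was analysed here, so each value is set against an injured kidney. Nothing in the labels ties each library to its own mouse, so p-values measure the spread between these samples, which may be technical.

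EGF family ligands are made as membrane-bound precursors, cut from the cell surface by metalloproteases such as ADAM17, and bind ErbB receptors on the same or neighbouring cells. Ligand binding pairs the receptors and switches on the RAS-ERK and PI3K-AKT cascades. In kidney, EGF is made in the thick ascending limb and distal tubule, while EGF receptor signalling is known for its part in tubule repair and, when prolonged, in fibrosis.

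Amphiregulin and TGF-alpha transcripts were higher in DXZ kidneys than in saline kidneys, and none of the 3 receptor transcripts passed the edgeR test. Areg was 5.33-fold higher and Tgfa 2.01-fold higher. Nrg1, encoding neuregulin 1, was 1.71-fold higher with no overlap between groups and missed the threshold. Egf, the ligand outside the 10 genes, was lower in DXZ. Of the 10 genes, 9 had enough counts to be tested and 2 passed, both higher in DXZ. By the same edgeR quasi-likelihood test at a Benjamini-Hochberg adjusted p below 0.05, 853 of 15351 tested genes passed (5.56%), of which 498 were higher (3.24%) and 355 lower (2.31%). At an unadjusted p below 0.05 the members were Areg, Tgfa and Nrg1, beside 25.4% of all tested genes. The tested members had a median log2 fold change of 0.33, beside 0.011 over all tested genes. The calls of Areg and Tgfa lay close to the threshold and were lost when most single libraries were left out, as given for each gene.

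The promoters of the called ligands are shown because both transcripts were higher together. They run from 250 bases before to 50 bases after the RefSeq start (GRCm38.p6), and 6 of the 10 genes had an entry in the RefSeq promoter table. The Areg window is chr5:91139349-91139648 and the Tgfa window chr6:86194972-86195271, both on the plus strand. Capitals mark any of 5 motifs searched on both strands: a cyclic AMP response element (CRE, TGACGTCA), a TATA box (TATAAA), an AP-1 element (TGANTCA), a TEAD element (GGAATG) and a GC box (GGGCGG).
Areg: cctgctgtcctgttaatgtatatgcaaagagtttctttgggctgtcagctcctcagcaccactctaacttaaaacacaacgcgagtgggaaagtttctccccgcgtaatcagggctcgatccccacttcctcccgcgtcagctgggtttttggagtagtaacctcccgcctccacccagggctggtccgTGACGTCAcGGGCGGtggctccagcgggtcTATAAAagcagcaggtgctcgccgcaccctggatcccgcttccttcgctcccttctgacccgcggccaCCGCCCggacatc
Tgfa: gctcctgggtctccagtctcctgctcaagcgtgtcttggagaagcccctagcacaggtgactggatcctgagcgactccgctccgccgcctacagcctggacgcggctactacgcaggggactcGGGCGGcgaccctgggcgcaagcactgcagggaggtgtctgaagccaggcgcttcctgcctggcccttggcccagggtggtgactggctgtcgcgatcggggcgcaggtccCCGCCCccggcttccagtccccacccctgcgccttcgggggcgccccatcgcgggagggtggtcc
The Areg window held a CRE beginning 61 bases and a TATA box beginning 31 bases before the start, and 2 GC boxes. The Tgfa window held 2 GC boxes and none of the other letters searched. Among 32817 promoter windows of the same length, 1.79% held the CRE, 13.6% the TATA box, 7.81% the AP-1 element, 14.7% the TEAD element and 35.6% the GC box. No motif overlapped another in these 2 windows. A match of letters describes the sequence and shows no binding.

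Total counts ranged from 16243682 to 17498520 in the DXZ libraries and from 16058157 to 18133736 in the saline libraries. Levels are given as CPM, counts scaled to a common library size by TMM. Kidney identity was seen in every library: the 7 proximal tubule markers, among them Lrp2 and Slc34a1, summed to between 985 and 1677 CPM in DXZ and between 3127 and 8188 CPM in saline, and 4 of the 7 were called lower in DXZ. In bulk tissue, fewer cells of a type and less RNA per cell cannot be told apart. The library DXZ 1 stood apart from the other DXZ libraries in stromal and immune markers. The 5 fibroblast markers summed to 385, 61.4 and 39.2 CPM in DXZ 1, 2 and 3, and ran from 89.0 to 308 CPM in saline. The 7 macrophage markers summed to 229, 94.2 and 59.9 CPM in DXZ 1 to 3, and from 71.9 to 158 CPM in saline. The 6 endothelial markers summed to 307, 111 and 71.7 CPM in DXZ 1 to 3, and from 197 to 301 CPM in saline. All 6 had a negative log2 fold change (median -0.60), and so had 4 of the 5 fibroblast markers (median -0.41). In these lists 0 endothelial and 0 fibroblast markers passed by edgeR. The calls of cell type markers are given with all libraries only. Saline 1 also stood apart from the other saline libraries. Its proximal tubule markers summed to 8188 CPM, against 3127 to 4755 CPM in saline 2 to 4. By edgeR 0 members passed without saline 1, and 3 passed without DXZ 1. Because DXZ 1 stood apart, the called members, Egf, the called pathway genes and Krt8 are also given without DXZ 1. Of the members not called, Btc was then at a log2 fold change of 0.35, Egfr at 0.069, Erbb2 at -0.027 and Adam17 at -0.32, and none of these passed by edgeR.

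**Figure D1:**
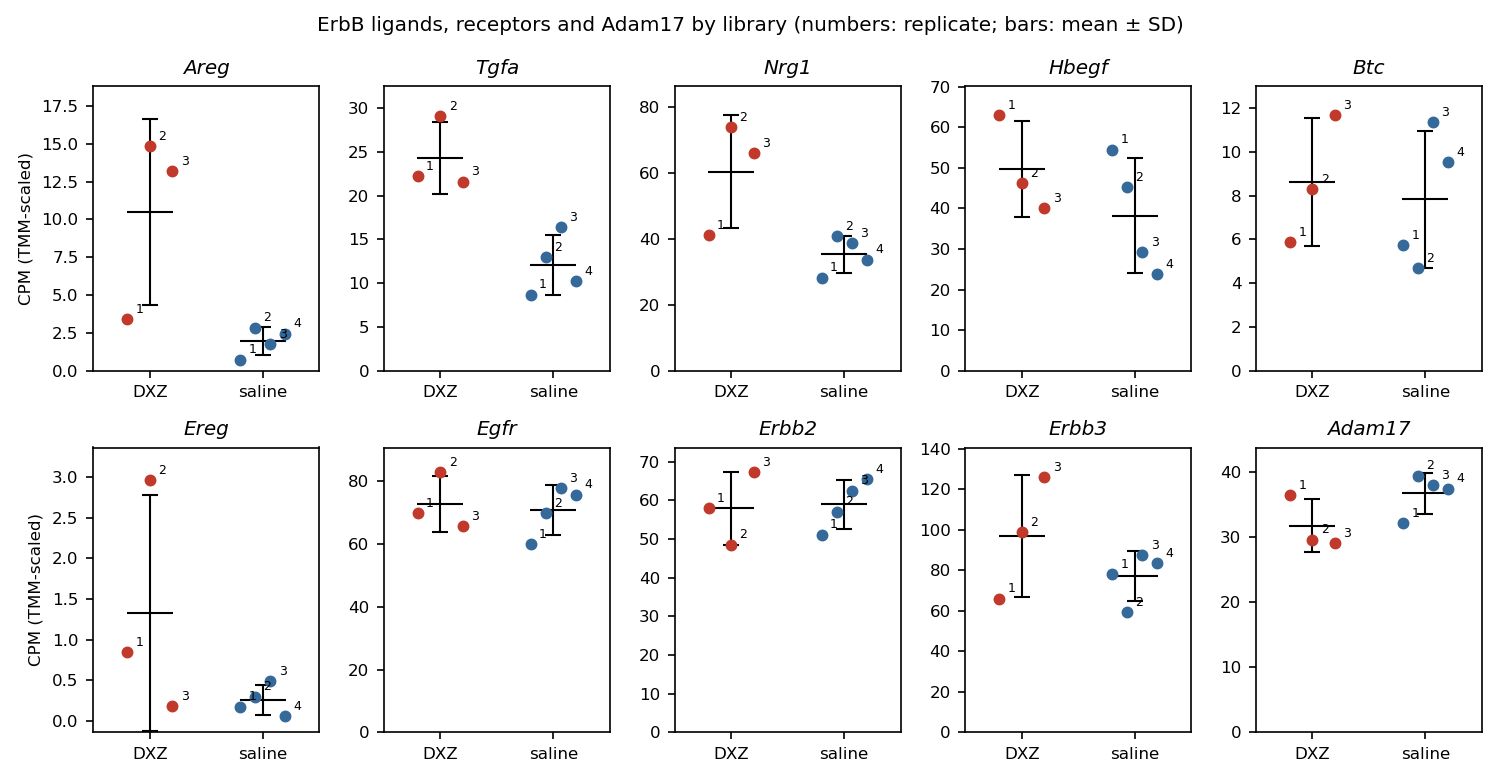
Each panel shows the TMM-scaled CPM of 1 gene in 3 DXZ libraries (red) and 4 saline libraries (blue), with numbers for the replicate and bars for mean ± SD. For Areg, Tgfa and Nrg1 all 3 DXZ libraries lie above all saline libraries, with DXZ 1 the nearest to saline for Areg and Nrg1.

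Areg, encoding amphiregulin, a low-affinity EGF receptor ligand known from tissue repair, had the largest fold change among the 5 tested member ligands (chromosome 5, 91139599 to 91148432, plus strand; GRCm38). It was at 3.44, 14.8 and 13.2 CPM in DXZ 1 to 3, against 0.745, 2.85, 1.77 and 2.47 CPM in saline 1 to 4. The groups did not overlap, but DXZ 1 lay just above saline 2, while DXZ 2 and DXZ 3 stood well above every saline library. The counts behind these levels were 61, 245 and 223 reads in DXZ and 13, 48, 29 and 42 reads in saline. The log2 fold change was 2.41 (SE 0.56, 95% interval 1.12 to 3.71, adjusted p = 0.0486 by edgeR). The call held without DXZ 1 (2.83, adjusted p = 0.0185 by edgeR). It was lost without saline 1 (2.15), saline 2 (2.65), saline 3 (2.37), saline 4 (2.55), DXZ 2 (2.08) or DXZ 3 (2.22), with edgeR adjusted p between 0.0788 and 0.144. Over all 16 alternatives the adjusted p ran from 0.000297 to 0.144 and the direction was the same in each.

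Tgfa, encoding TGF-alpha, a high-affinity EGF receptor ligand, lies on chromosome 6 (86195223 to 86275719, plus strand; GRCm38). It was at 22.3, 29.1 and 21.6 CPM in DXZ 1 to 3, against 8.71, 13.0, 16.4 and 10.2 CPM in saline 1 to 4. All 3 DXZ libraries, DXZ 1 included, lay above the highest saline library. The log2 fold change was 1.01 (SE 0.22, 95% interval 0.49 to 1.53, adjusted p = 0.0446 by edgeR). The call held without DXZ 1 (1.07, adjusted p = 0.0430 by edgeR) and without saline 3 (1.19, adjusted p = 0.0408 by edgeR). It was lost without saline 1 (0.88), saline 2 (1.04), saline 4 (0.94), DXZ 2 (0.85) or DXZ 3 (1.09), with edgeR adjusted p between 0.0783 and 0.134. The alternatives gave adjusted p from 0.00170 to 0.134.

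Nrg1, whose products bind ErbB3 and ErbB4 rather than the EGF receptor, lies on chromosome 8 (31814551 to 32884029, minus strand; GRCm38). It was at 41.1, 74.0 and 66.1 CPM in DXZ 1 to 3, against 28.3, 40.8, 38.9 and 33.7 CPM in saline 1 to 4. The groups did not overlap, and DXZ 1 exceeded saline 2 only narrowly. The log2 fold change was 0.77 (SE 0.21, 95% interval 0.29 to 1.25) and did not pass (adjusted p = 0.0683 by edgeR). Without DXZ 1 it was 0.98 and passed (adjusted p = 0.0187 by edgeR), and it also passed by DESeq2 (adjusted p = 0.0168). The alternatives gave adjusted p from 0.0157 to 0.206. Of all tested genes, 24.1% had groups that did not overlap, 12.8% with DXZ higher. Among the tested members these were Areg, Tgfa and Nrg1.

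Hbegf, encoding heparin-binding EGF-like growth factor, did not pass. It was at 63.0, 46.2 and 40.0 CPM in DXZ 1 to 3, against 54.5, 45.3, 29.3 and 23.9 CPM in saline 1 to 4. The groups overlapped, with saline 1 above DXZ 2 and DXZ 3. The log2 fold change was 0.38 (95% interval -0.29 to 1.05, adjusted p = 0.455 by edgeR), and leaving out single libraries moved it between 0.17 without DXZ 1 and 0.60 without saline 1. Btc, encoding betacellulin, which binds EGF receptor and ErbB4, was at 5.86, 8.28 and 11.7 CPM in DXZ and 5.73, 4.70, 11.4 and 9.52 CPM in saline. Its groups spanned nearly the same range, at a log2 fold change of 0.14 (95% interval -0.68 to 0.96, adjusted p = 0.848 by edgeR).

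Ereg, encoding epiregulin, was at the edge of detection and did not pass the filter on low counts. It had 15, 49 and 3 reads in DXZ 1 to 3, against 3, 5, 8 and 1 reads in saline 1 to 4. DXZ 1 and DXZ 2 lay above every saline library and DXZ 3 among them. In the fit with no filter its log2 fold change was 2.36 (adjusted p = 0.157 by edgeR), and over the alternatives that tested it the adjusted p ran from 0.0866 to 0.441. Ereg, Areg and Btc lie on chromosome 5 between 91074622 and 91402994 (GRCm38). Of these members Areg was called, Btc did not pass and Ereg was not tested in the main fit. Other genes of this stretch are not given here.

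Of the 3 receptors 0 passed by edgeR, 0 had an unadjusted p below 0.05 and 0 passed by DESeq2. Egfr, the receptor of EGF, TGF-alpha, amphiregulin and HB-EGF, was at 69.7, 82.8 and 65.6 CPM in DXZ and 59.8, 69.8, 77.8 and 75.6 CPM in saline. The groups overlapped throughout, and the log2 fold change was 0.038 (95% interval -0.25 to 0.33, adjusted p = 0.883 by edgeR). As a fold change of the level in bulk tissue, this 95% interval ran from 0.841 to 1.25. Erbb2, the partner receptor with no known ligand of its own, was at 58.0, 48.6 and 67.3 CPM in DXZ and 51.1, 57.1, 62.6 and 65.5 CPM in saline. DXZ 2 was the lowest and DXZ 3 the highest of the 7 libraries, and the log2 fold change was -0.027 (95% interval -0.34 to 0.28, adjusted p = 0.926 by edgeR). The sign of Egfr and Erbb2 changed under some alternatives.

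Erbb3, the neuregulin receptor with an impaired kinase, was at 66.0, 98.7 and 126 CPM in DXZ and 78.1, 59.4, 87.5 and 83.6 CPM in saline. DXZ 2 and DXZ 3 lay above every saline library, and DXZ 1 lay inside the saline range. The log2 fold change was 0.33 (95% interval -0.18 to 0.83, adjusted p = 0.390 by edgeR), and it was 0.54 without DXZ 1 (adjusted p = 0.0856 by edgeR) and 0.093 without DXZ 3. Over its alternatives the adjusted p ran from 0.0856 to 0.856. Erbb4, the remaining ErbB receptor and not among the 10 genes, had a log2 fold change of -0.016 (95% interval -0.47 to 0.44, adjusted p = 0.971 by edgeR), and its sign changed under some alternatives.

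Adam17, encoding the protease that releases TGF-alpha, amphiregulin and HB-EGF, was at 36.4, 29.6 and 29.1 CPM in DXZ and 32.2, 39.4, 37.9 and 37.4 CPM in saline. DXZ 2 and DXZ 3 lay below every saline library and DXZ 1 did not. The log2 fold change was -0.21 (95% interval -0.48 to 0.061, adjusted p = 0.305 by edgeR). Adam17 overlaps Iah1 on the opposite strand. Iah1 had 2411, 1924 and 2815 reads in DXZ 1 to 3, against 3745, 3396, 3031 and 3744 reads in saline 1 to 4. The strand setting of the counting is not given in the sources used here. The Adam17 level and its difference between groups are therefore uncertain, and the part of Iah1 in them was not tested. The genes overlapping Tgfa, Nrg1 and Ereg on the opposite strand had at most 2, 35 and 4 reads per library, and Egfros, opposite Egfr, had at most 8. Mien1, opposite Erbb2, had 504, 248 and 465 reads in DXZ 1 to 3 and 361 to 378 reads in saline. Both genes were lowest in DXZ 2, while Mien1 was highest in DXZ 1 and Erbb2 in DXZ 3. Erbb2 is uncertain in the same way as Adam17.

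**Figure D2:**
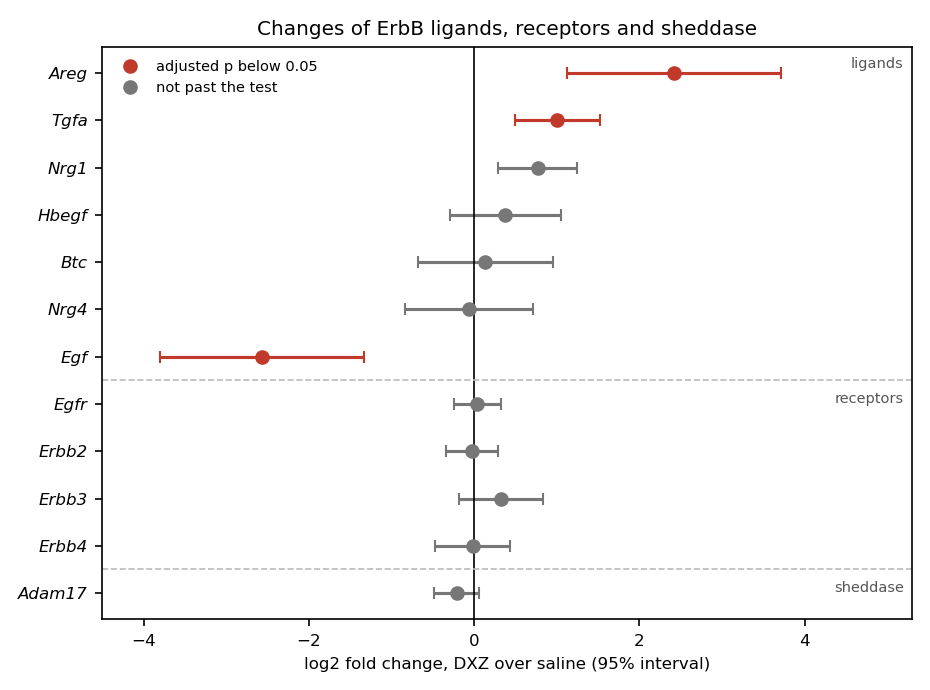
Points show the log2 fold change of DXZ over saline and bars its 95% interval for 7 ligands, 4 receptors and Adam17, in red where the edgeR adjusted p was below 0.05. Areg and Tgfa lie to the right of 0, Egf lies to the left, and the intervals of all 4 receptors span 0.

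Levels of different genes were compared as FPKM, which divides by gene length. Among the 6 ligands Hbegf was the most abundant in all 7 libraries, at 20.8 ± 4.71 FPKM in DXZ (SD, n = 3) and 16.0 ± 5.90 FPKM in saline (SD, n = 4). Areg had rank 2 in DXZ 2 and DXZ 3, at 12.2 and 10.8 FPKM. It had rank 4 in DXZ 1, at 2.77 FPKM, and ranks 3 to 5 in saline, at 0.610 to 2.33 FPKM. Nrg1 averaged 5.80 ± 1.71 FPKM in DXZ and 3.41 ± 0.532 FPKM in saline, and had rank 2 in DXZ 1 and in every saline library. Tgfa averaged 3.72 ± 0.671 and Btc 1.89 ± 0.655 FPKM in DXZ, and they averaged 1.85 ± 0.517 and 1.73 ± 0.693 FPKM in saline. Tgfa and Btc did not differ beyond their spread in saline. Ereg was the lowest of the 6 in all libraries, at 0.0427 to 0.720 FPKM in DXZ and 0.0143 to 0.118 FPKM in saline. Summed over the 6 ligands, levels were 37.4, 46.0 and 39.9 FPKM in DXZ 1 to 3, against 28.8, 28.3, 22.6 and 19.1 FPKM in saline 1 to 4. The sums did not overlap between groups.

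Egf was the most abundant of all ErbB ligands in 3 of the 4 saline libraries and in 0 of the 3 DXZ libraries. Egf was at 85.2, 29.1 and 33.0 CPM in DXZ 1 to 3, against 333, 269, 121 and 445 CPM in saline 1 to 4, with no overlap. Its log2 fold change was -2.57 (SE 0.54, adjusted p = 0.0390 by edgeR). Without DXZ 1, the DXZ library with the highest Egf, the log2 fold change was -3.23 and the call held (adjusted p = 0.0190 by edgeR); it also held without saline 3 (-2.83). The call was lost without saline 1 (-2.51), saline 2 (-2.61), saline 4 (-2.30), DXZ 2 (-2.32) or DXZ 3 (-2.37), and over all alternatives the adjusted p ran from 0.000434 to 0.116. Markers of the tubule segments that make EGF are given beside it. The 3 distal convoluted tubule markers summed to between 66.0 and 91.2 CPM in DXZ and between 194 and 276 CPM in saline. Their median was -1.59 on the log2 scale, and Slc12a3 and Pvalb were called lower. The 5 thick ascending limb markers summed to between 1134 and 3213 CPM in DXZ and between 2130 and 3779 CPM in saline, overlapping between groups. All 5 had a negative log2 fold change, with a median of -0.55; 0 passed by edgeR, 2 had an unadjusted p below 0.05 and Slc12a1 passed by DESeq2. No marker of either list was at 0 in all libraries, and their part in the Egf level was not tested. Egf made up 16.3%, 5.28% and 6.71% of the summed FPKM of 11 ErbB ligands in DXZ 1 to 3, against 49.8%, 45.0%, 31.7% and 66.9% in saline 1 to 4. Areg made up 6.11%, 24.9% and 24.8% in DXZ 1 to 3, against 1.03%, 4.44%, 4.31% and 3.44% in saline 1 to 4. Hbegf made up between 38.7% and 57.3% in DXZ and between 17.1% and 38.7% in saline. With Egf counted, the summed ligand level was 45.3, 49.1 and 43.4 FPKM in DXZ 1 to 3 and 59.0, 52.5, 33.7 and 59.1 FPKM in saline 1 to 4, and the groups overlapped. Shares of a sum depend on each other, so a smaller share of Egf by itself raises the other shares. The remaining ligands were low: Nrg4 had a log2 fold change of -0.065 (adjusted p = 0.929 by edgeR), Nrg2 had 2 to 7 reads per library, and Epgn and Nrg3 were listed at 0 in all 7 libraries.

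**Figure D3:**
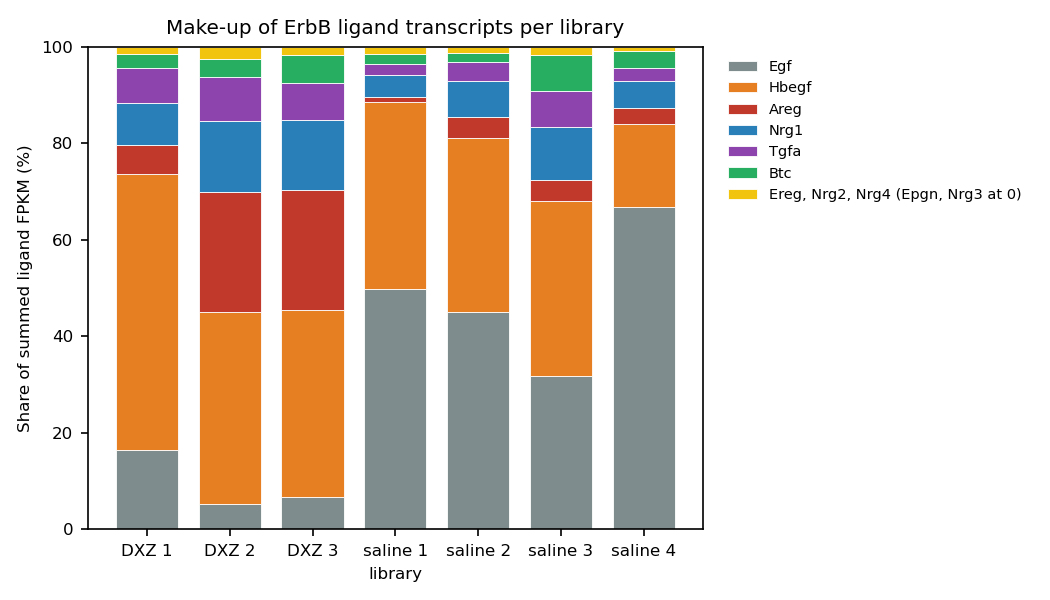
Stacked bars show the share of each ligand in the summed FPKM of 11 ErbB ligands in each of the 3 DXZ and 4 saline libraries. Egf makes up between 5.28% and 16.3% in DXZ and between 31.7% and 66.9% in saline, and the Areg share is largest in DXZ 2 and DXZ 3.

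Among the receptors Erbb3 and Erbb2 were the most abundant, at 16.0 ± 5.06 and 11.0 ± 1.75 FPKM in DXZ, and at 12.8 ± 2.08 and 11.3 ± 1.24 FPKM in saline. These neighbours in the order did not differ beyond their spread. Egfr followed at 6.37 ± 0.843 FPKM in DXZ and 6.22 ± 0.717 FPKM in saline, and Erbb4 was lowest at 0.915 ± 0.0971 FPKM in DXZ and 0.929 ± 0.216 FPKM in saline. Egfr had rank 3 and Erbb4 rank 4 in all 7 libraries.

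Genes around the ligands and receptors were read from lists of the pathway. Beside the counts that follow, 3.24% of all tested genes passed with higher levels in DXZ and 2.31% with lower levels. In lists of 9 to 18 tested genes, counts of 0 to 2 are too few to set a list apart from these shares. The 13 shedding genes include those of proteases, protease inhibitors and the iRhom proteins that carry ADAM17 to the surface. Of these 13 genes, 1 rose and 0 fell, with a median log2 fold change of 0.19 beside 0.011 over all 15351 tested genes. The gene was Rhbdf2, encoding iRhom2, a partner that ADAM17 needs to mature. Rhbdf2 was at 43.5, 56.2 and 50.7 CPM in DXZ, against 34.9, 36.0, 33.8 and 35.4 CPM in saline. The saline libraries were nearly equal, and all DXZ libraries lay above them (log2 fold change 0.52, SE 0.10, adjusted p = 0.0338 by edgeR). The Rhbdf2 call held without DXZ 1 (0.61) and was lost without any of the other 6 libraries, at log2 fold changes of 0.42 to 0.53 (edgeR adjusted p from 0.0677 to 0.112): 0.51 without saline 1, 0.53 without saline 2, 0.50 without saline 3, 0.52 without saline 4, 0.42 without DXZ 2 and 0.51 without DXZ 3.

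Of 16 adaptor and RAS-ERK genes 1 rose and 0 fell, with a median of 0.082. The gene was Hras, a RAS GTPase, at 128, 117 and 126 CPM in DXZ, against 80.1, 93.7, 89.4 and 78.8 CPM in saline (log2 fold change 0.53, SE 0.10, adjusted p = 0.0292 by edgeR). Its call held without DXZ 1 (0.51) and was lost without saline 1 (0.50), saline 3 (0.56), saline 4 (0.49), DXZ 2 (0.56) or DXZ 3 (0.51). Of 18 tested negative regulators 2 rose and 0 fell, with a median of 0.075. Spred3, an inhibitor of RAS-ERK signalling, was at 9.69, 12.2 and 8.50 CPM in DXZ, against 4.13, 3.57, 4.64 and 3.82 CPM in saline. Every DXZ library was well above every saline library (log2 fold change 1.33, SE 0.19, adjusted p = 0.0205 by edgeR), and the Spred3 call held without DXZ 1 (1.36) and was lost without saline 4 (1.30) or DXZ 2 (1.16). Ptpn12, a tyrosine phosphatase, had a log2 fold change of 0.48 (adjusted p = 0.0463 by edgeR), and passed without DXZ 1 (0.54) but not without saline 1 (0.48), saline 2 (0.54), saline 3 (0.48), saline 4 (0.43), DXZ 2 (0.38) or DXZ 3 (0.51).

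Of 10 transcripts used as a readout of ERK output 1 rose and 0 fell, with a median of 0.28. Epha2, an ephrin receptor, was at 79.6, 57.1 and 51.8 CPM in DXZ, against 22.5, 37.2, 28.6 and 22.2 CPM in saline (log2 fold change 1.19, SE 0.22, adjusted p = 0.0301 by edgeR). DXZ 1 was the highest of the 7 libraries. The Epha2 call held without it (0.98) and was lost without saline 1 (1.10), saline 3 (1.20), saline 4 (1.09), DXZ 2 (1.24) or DXZ 3 (1.30). The other 9, which include Spry2 and Spry4 from the list of negative regulators, did not pass, among them 4 with a negative fold change. Of 9 PI3K-AKT genes 0 passed by edgeR or DESeq2 and 2 had an unadjusted p below 0.05, with a median of -0.10. Pik3ca, the catalytic subunit, was at a log2 fold change of -0.37 (adjusted p = 0.0879 by edgeR) and Akt1 at 0.28 (adjusted p = 0.121 by edgeR). DESeq2 also called Adam8, Nras and Etv4 in these lists.

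**Figure D4:**
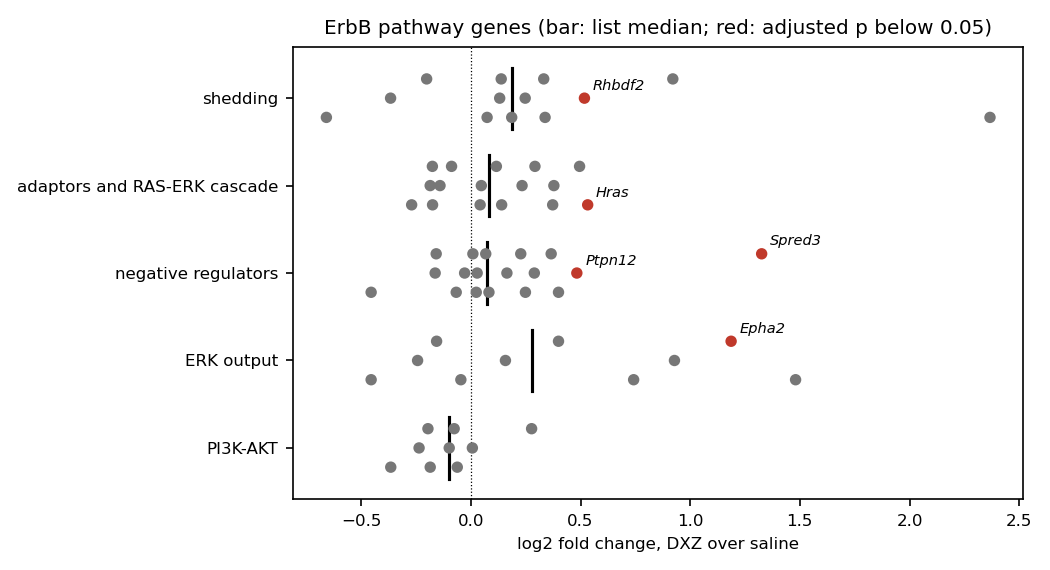
Each point is 1 tested gene of 5 pathway lists at its log2 fold change of DXZ over saline, with a bar at the list median and red for an edgeR adjusted p below 0.05. In 4 lists 1 or 2 genes passed, and all list medians lie between -0.10 and 0.28.

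The ligands were also set beside injury and cell type markers. Krt8, an epithelial keratin raised in injured tubules, was called higher in DXZ (log2 fold change 1.20, adjusted p = 0.0204 by edgeR), a call held without DXZ 1 (1.19) and lost without saline 4 (1.12) or DXZ 2 (1.09). Lcn2, encoding NGAL, was at 936, 2856 and 3125 CPM in DXZ 1 to 3, against 112, 311, 1346 and 502 CPM in saline 1 to 4. Like Areg, Lcn2 was lower in DXZ 1 than in DXZ 2 and DXZ 3, but its groups overlapped and it did not pass (adjusted p = 0.145 by edgeR). Havcr1, encoding KIM-1, did not pass either (log2 fold change 1.67, adjusted p = 0.207 by edgeR). Of 5 urothelial markers 0 passed by edgeR or DESeq2 and 1 had an unadjusted p below 0.05. They summed to 38.9, 12.0 and 55.4 CPM in DXZ 1 to 3 and from 1.43 to 30.4 CPM in saline, with no marker at 0 in all libraries. Of 7 macrophage markers 1 passed, Cd68, higher in DXZ, while 5 of the 7 had a negative log2 fold change and the list's median was -0.24. Their summed levels, given above for each DXZ library, were highest in DXZ 1, the DXZ library in which Areg and Nrg1 were lowest. Of 4 neutrophil markers 3 were tested and 0 passed by edgeR, by DESeq2 or at an unadjusted p below 0.05, with sums from 4.13 to 13.3 CPM in DXZ and from 2.01 to 7.21 CPM in saline. Of 4 T cell markers 2 were tested and 0 passed in the same 3 ways, with sums from 0.827 to 3.38 CPM in DXZ and from 1.41 to 4.46 CPM in saline. All 3 tested neutrophil markers had a positive log2 fold change (median 0.60). Both tested T cell markers had a negative log2 fold change (median -0.44). The part of these cell types in the ligand levels was not tested.

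The genes whose log2 CPM followed each leading ligand most closely over the 7 libraries were found, as a description, among 10638 tested genes. Their mean CPM reached 5, and predicted (Gm), Rik, clone-named and pseudogene entries were left out of the search. For Areg they were Klf6 (Pearson r = 0.993), an immediate early transcription factor, Kif1b (0.984), a kinesin motor, and Btg3 (0.981), an antiproliferative gene. For Tgfa they were Snrpc (0.997), a U1 small nuclear ribonucleoprotein subunit, Map4k4 (0.997), a kinase, and Aaas (0.996), a nuclear pore protein. For Nrg1 they were Zfp809 (0.994), a zinc finger repressor, Mettl6 (0.988), a methyltransferase, and Med7 (0.987), a Mediator subunit. Klf6 was at 161, 239 and 240.4 CPM in DXZ 1 to 3, against 99.2, 145, 137 and 135 CPM in saline 1 to 4. As for Areg, saline 1 was lowest and DXZ 1 stood between saline and the other DXZ libraries. The points share libraries and the group difference, and the best of 10638 genes over 7 points is high by selection.

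The share of all genes that passed differed widely between alternatives, and the members' counts are read against it. Areg, Tgfa and Nrg1 passed together by DESeq2 (12.5% of all genes passed), by limma-voom (5.48%), with no filter on low counts (3.62%), without DXZ 1 (10.1%) and without saline 1 and DXZ 1 (8.65%). Areg and Tgfa passed with median-of-ratios size factors (5.46%). Tgfa alone passed on FPKM plus 1 (6.97%), on FPKM plus 0.1 (6.74%) and without saline 3 (2.80%). Areg alone passed with the replicate number as a block (0.554%). No member passed on FPKM plus 1 with no filter (0.533%), without saline 1 (2.47%), without saline 2 (1.96%), without saline 4 (0.0263%), without DXZ 2 (0.00637%) or without DXZ 3 (0.897%). In all, 4 genes passed without saline 4 and 1 gene without DXZ 2.

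**Figure D5:**
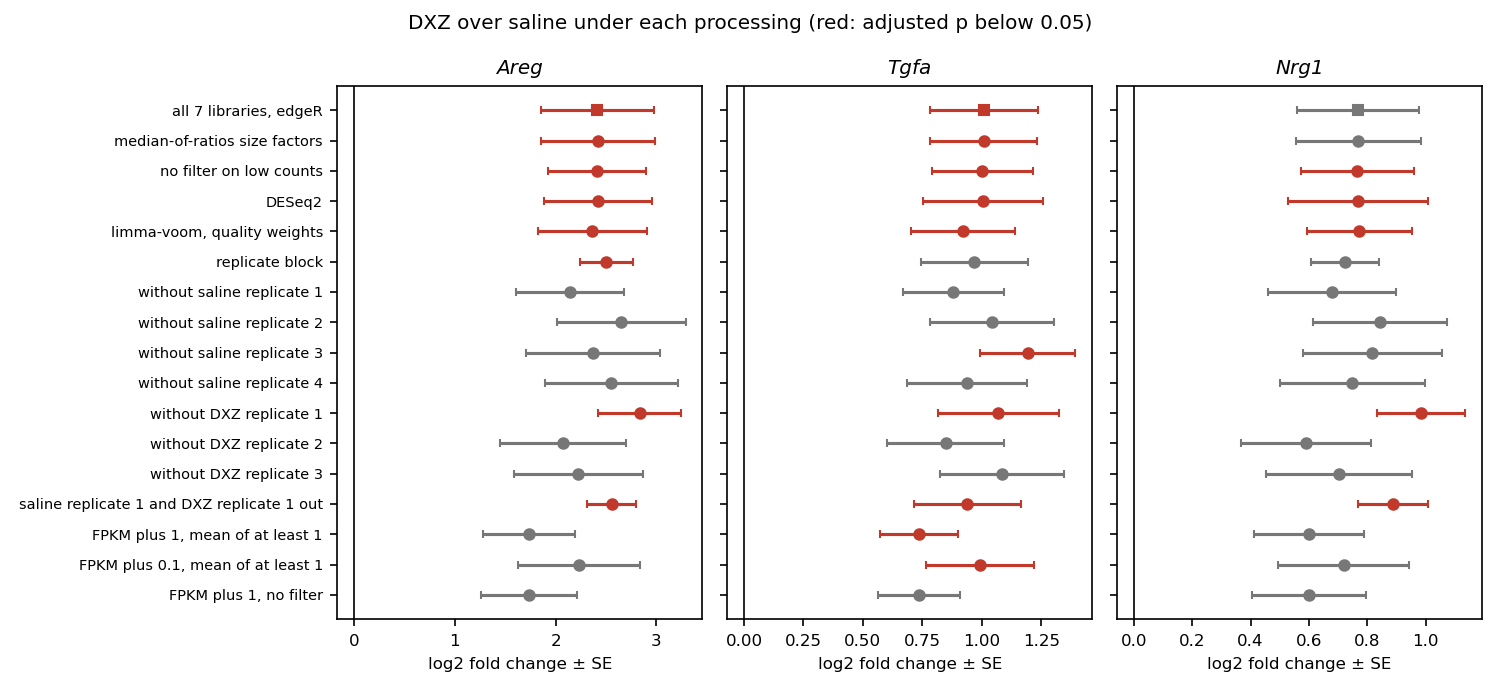
Points show the log2 fold change of DXZ over saline and bars its SE for Areg, Tgfa and Nrg1 with all 7 libraries by edgeR (square) and under 16 alternatives (circles), in red where the adjusted p was below 0.05. All points lie above 0, while 7, 9 and 5 of the 16 alternatives passed for Areg, Tgfa and Nrg1.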

How the data were processed

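RNA was extracted from kidney tissue with Trizol, per the labels. The authors deposited raw counts of reads per gene and an FPKM table. The deposited FPKM are the same counts over gene length, scaled by 1 factor for each library, so they are no independent measurement. The submitters' processing notes list HISAT2, StringTie and mm9 and no version. The table's coordinates matched GENCODE M21 (GRCm38) in start and end for 53585 of 54495 shared gene identifiers (98.3%) and are taken as GRCm38. Which program counted the reads, and with which strand setting, is not given in the sources used here.

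The deposited counts were tested with edgeR 4.0.16 in R 4.3.3 (TMM, filterByExpr, quasi-likelihood F test on group, Benjamini-Hochberg adjustment over 15351 genes). Each SE is the log2 fold change over the root of its F statistic, and 95% intervals use the t distribution. In 3 simulated data sets of 15351 genes with 200 changed, the test recovered 47.0% of 2-fold and 82.3% of 4-fold changes, and 5.83% of calls were false. The simulated libraries of a group shared the same mean for each gene, with no library set apart like DXZ 1 or saline 1. These simulated shares therefore do not give the error of the calls in the real libraries. Alternatives used limma 3.58.1 and DESeq2 1.42.0, median-of-ratios scaling, no filter, log2 of FPKM plus 1 or 0.1, the replicate number as a block, and libraries left out. Chi-square per degree of freedom between replicates was 14.0 to 90.4, far over sampling noise. It was 53.0 to 90.4 in pairs with saline 1 and 14.0 to 34.9 in the other saline pairs. Pairs with DXZ 1 were at 59.9 and 54.7, and DXZ 2 with DXZ 3 was at 32.6.

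The members, lists and tests were chosen with earlier results of these data known. Named were all members, Egf, Erbb4, the called genes of each pathway list or else the 2 of lowest adjusted p, and the 3 genes most like each of the 3 members of lowest p. A few other genes were named as context after their values were seen.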

Additional observations from a re-analysis of the deposited data

How the results depend on the processing

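With all 7 libraries edgeR called 853 genes and 2 of the 10 members. The count over all genes was 2011 by DESeq2, 145 with log2 of FPKM plus 1 and no filter, 1332 with saline 1 and DXZ 1 both left out, and between 1 (without DXZ 2) and 1574 (without DXZ 1) with 1 library left out; it was 4 without saline 4, 141 without DXZ 3, and 374, 296 and 426 without saline 1, 2 and 3. The count of members was 1 (Tgfa) with FPKM plus 1 or plus 0.1 at a mean FPKM of at least 1, 0 with FPKM plus 1 and no filter, and 0 to 3 with 1 library left out. It was 3, with Nrg1 added, by DESeq2, by limma-voom, with no filter, without DXZ 1, and without saline 1 and DXZ 1. The pairing by replicate number is not given by the labels, so the numbers were not taken as pairs. The deviations of same-numbered libraries correlated at 0.26, -0.09 and 0.23. Those of differently numbered libraries correlated between -0.46 (DXZ 3 with saline 2) and 0.43 (DXZ 1 with saline 2). As deviations from the means of small groups, these correlations cannot decide whether the numbers mark pairs. With the replicate block 85 genes and 1 member (Areg, adjusted p = 0.0463) passed; under this block Erbb2 was at 0.018 and Erbb4 at 0.14, of opposite sign to the fit without it. Other sign changes were of small values that never passed: Egfr at -0.030 by limma-voom and -0.0055 without saline 1 and DXZ 1, and Nrg4 at 0.21 and 0.29 in the same 2 fits. With 1 library left out, Egfr ran from -0.078 to 0.10, Erbb2 from -0.15 to 0.074, Erbb4 from -0.14 to 0.13, Btc from -0.15 to 0.37 and Nrg4 from -0.23 to 0.23. The cause of these changes was not tested. Areg and Tgfa kept their direction in all 16 alternatives. Depth limits Ereg, with at most 49 reads in a library.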
